A study of Homo sapiens with 12 samples.

Results

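The genes described here are the nuclear genes of mitochondrial complex I, taken as every gene of the deposited table whose symbol is NDUFA, NDUFB, NDUFC, NDUFS, NDUFV, NDUFAB or NDUFAF followed by a number. The rule found 46 genes among 59577, of which 45 are described here. Of the 45, 27 encode accessory subunits (A, B, C and AB symbols), 10 carry S or V symbols, and 8 encode assembly factors (AF symbols). RNA was sequenced from H1299, an established line of human lung cancer according to its labels. The 6 normoxia samples were grown in 21% O2, 5% CO2 and 74% N2, and the 6 hyperoxia samples in 60% O2, 5% CO2 and 35% N2 for 24 h. All 12 samples are the same line with no genetic change named, and the question of the design is what raised oxygen does to its transcripts. Whether replicates are separate cultures is not said in the labels, so the p-values cover no more than the spread among these 12 samples, part of which may be technical.

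Complex I, NADH:ubiquinone oxidoreductase, is the largest enzyme of the respiratory chain. It takes electrons from NADH through a flavin and a chain of iron-sulfur clusters in its peripheral arm, which stands in the matrix, hands them to ubiquinone, and pumps protons through its membrane arm. Its central membrane subunits are encoded by mitochondrial DNA and the rest by the nucleus, and assembly factors build it in modules without remaining in the finished enzyme. Leakage of electrons from it to oxygen is a known source of superoxide.

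Values are in TPM, a relative transcript level scaled for transcript length and for the sum over all genes, which keeps no sequencing depth. The sum over all genes lay between 996138 and 998797 TPM in the 12 samples. The line was checked against markers: the keratin KRT8 averaged 603 TPM in normoxia and the mesenchymal filament VIM 3351 TPM, while the epithelial adhesion genes EPCAM and CDH1 and all 6 lung lineage markers looked at stayed under 1 TPM on average. Among 13 markers of other cell types, only CD68 and COL1A1 reached a mean of 1 TPM, neither changed, and the summed level of the 13 was 41.6 to 51.9 TPM in normoxia and 40.8 to 55.9 TPM in hyperoxia. Along the first principal component of all tested genes, which held 20.7% of the variance, normoxia replicates 4, 5 and 6 lay at -22.0, -33.3 and -18.7. Normoxia replicates 1, 2 and 3 lay between -9.44 and -5.12, and the hyperoxia samples between 11.3 and 19.8. Calls lost without either set of normoxia samples are named beside the gene.

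All 45 genes were expressed well above the minimum mean of 1 TPM that a gene needed for testing. Mean levels in normoxia spanned 36.1-fold, from 15.5 TPM for NDUFAF1, an early assembly factor, to 559 TPM for NDUFB9, an accessory subunit of the membrane arm. The median level was 194 TPM over the accessory subunits, 158 TPM over the S and V genes, and 23.0 TPM over the assembly factors. An assembly factor, NDUFAF8, was nevertheless at 241 TPM, and some subunits were low, with NDUFV3 at 28.2 TPM and NDUFB6 at 37.1 TPM. Within each class the highest and lowest gene differed by 15.1-fold (accessory), 19.4-fold (S and V) and 15.6-fold (assembly).

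**Figure D1:**
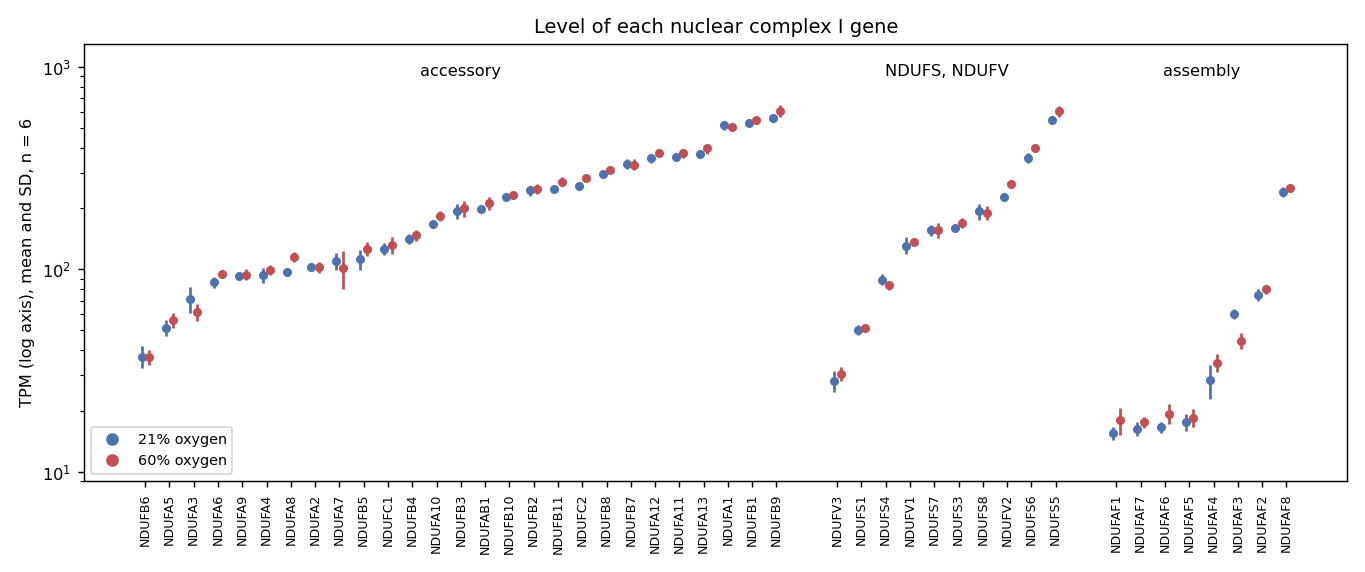
Mean level of each of the 45 genes (vertical axis, TPM, log scale; bars are SD, n = 6) at 21% oxygen (blue) and 60% oxygen (red), in order of the normoxia level within the accessory, S and V, and assembly genes. The levels at both oxygen settings lie close together compared with the 36.1-fold span between genes, and most assembly factors lie at the low end.

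In hyperoxia 7 of the 45 genes rose, 1 fell and 37 did not pass the test (limma on log2(TPM + 1), Benjamini-Hochberg adjusted p under 0.05 over 14520 genes). The genes that rose were NDUFA8, NDUFA10, NDUFB11, NDUFC2, NDUFS5, NDUFS6 and NDUFV2, and the gene that fell was NDUFAF3. The 7 make up 15.6% of the complex I genes, beside 11.7% of all tested genes that rose, and 5.63% of all tested genes fell (17.3% changed in either direction). The differences were small, from 0.12 to 0.24 on the log2 scale for those that rose. Across the 45 genes 36 differences were positive and 9 negative, with a median of 0.07. Over all 14520 tested genes 8296 were positive and 6224 negative, with a median of 0.03. In 3 genes every hyperoxia sample lay above every normoxia sample, and in 1 gene below; the shares over all tested genes were 6.20% and 2.58%.

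The summed level of the 45 genes overlapped between the groups, at 8146 to 8680.4 TPM in normoxia and 8513 to 9060 TPM in hyperoxia. Only the sum over the 10 S and V genes did not overlap, at 1884 to 1973 TPM against 1999 to 2152 TPM. Its mean went from 1940 to 2088 TPM. It includes the called genes NDUFS5 (mean 547 to 604 TPM), NDUFS6 (356 to 400 TPM) and NDUFV2 (229 to 265 TPM), so it is no separate result for the class. The accessory sums were 5772 to 6220 and 6022 to 6426 TPM, and the assembly factor sums 446 to 497 and 473 to 495 TPM. The number of genes that rose depended on the scaling between samples: 2 rose and 1 fell after median-of-ratios scaling. Under it, 1323 of all tested genes rose in place of 1698, and 51.7% of all calls were increases in place of 67.5%. NDUFA8, NDUFV2 and NDUFAF3 passed the threshold under all 27 alternative settings.

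**Figure D2:**
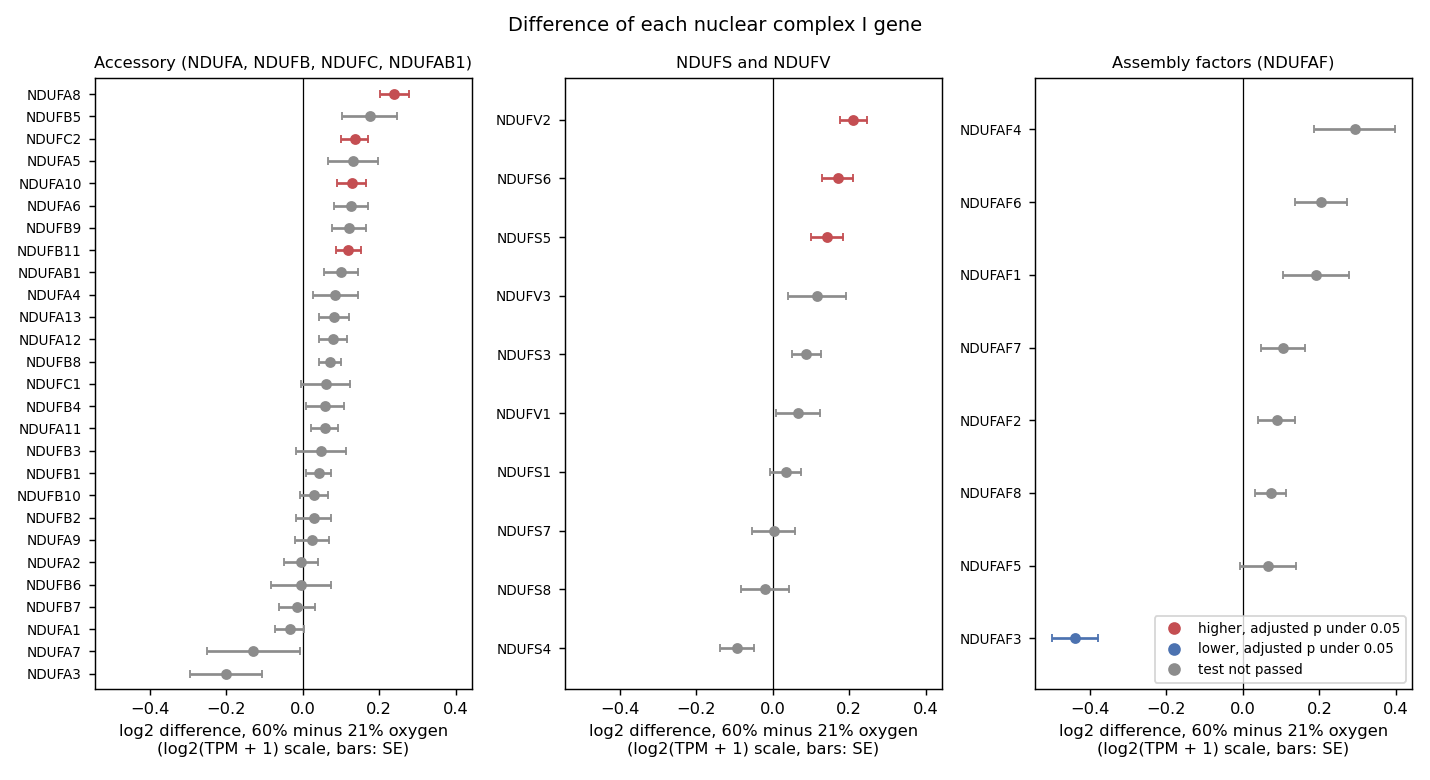
Difference of each of the 45 genes (horizontal axis, 60% minus 21% oxygen on the log2(TPM + 1) scale; bars are SE) in panels for accessory, S and V, and assembly genes. The 7 genes in red passed the test to the right of 0, NDUFAF3 in blue passed it at -0.44, and the 37 in grey did not pass.

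Promoter sequences were looked up in RefSeq (assembly GRCh38.p14), from 250 bases before to 50 after each listed start, and 39 of the 45 genes had an entry. NDUFA4, NDUFAF6, NDUFB5, NDUFB9, NDUFC2 and NDUFS5 had none. The sequences of the 3 most firmly called genes with an entry and of NDUFS6 are shown to place the searched motifs, 5′ to 3′ on the strand of the gene, from 100 bases before the start, with matches to the searched motifs in capitals. They are chr9:122159768-122159879 on the minus strand for NDUFA8, chr18:9102599-9102698 on the plus strand for NDUFV2, chr5:1801307-1801423 on the plus strand for NDUFS6, and chr3:49022021-49022120 on the plus strand for 1 of the 4 listed starts of NDUFAF3. Of these 4 starts, only the start shown had a match in the 100 bases before it.
NDUFA8: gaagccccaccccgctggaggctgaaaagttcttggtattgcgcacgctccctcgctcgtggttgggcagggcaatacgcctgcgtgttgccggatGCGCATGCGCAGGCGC
NDUFV2: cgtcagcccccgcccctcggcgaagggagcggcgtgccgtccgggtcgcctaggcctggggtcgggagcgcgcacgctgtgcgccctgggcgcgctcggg
NDUFS6: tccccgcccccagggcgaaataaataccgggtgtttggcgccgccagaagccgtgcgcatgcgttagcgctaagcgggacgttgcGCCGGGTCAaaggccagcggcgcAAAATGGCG
NDUFAF3: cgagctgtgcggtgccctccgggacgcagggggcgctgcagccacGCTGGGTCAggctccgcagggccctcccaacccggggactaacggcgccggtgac

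The motifs of NRF1, YY1, ETS factors and NRF2 were searched on both strands of the whole 300-base windows. The NRF1 motif (GCGCA, any base, then GCGC) belongs to a factor known for driving nuclear genes of the respiratory chain. Counting a match at any listed start, it was in 7 of the 39 genes (17.9%), beside 6.98% of all 27305 genes with an entry and 13.9% of tested genes. In NDUFA8 a pair of overlapping matches lies across the start, the capitals of its sequence. The YY1 motif, AANATGGCG, was in 12 of 39 (30.8%), beside 3.85% of all genes with an entry and 8.47% of tested genes. Among the genes that changed, it lay in NDUFS6, as AAAATGGCG just after the start, and in NDUFV2, where the match on the other strand begins 42 bases after the start and outside the stretch shown.

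The antioxidant response motif, TGACNNNGC, is bound by NRF2 with small MAF proteins. It was in 11 of 39 (28.2%), beside 16.1% of all genes with an entry and 19.3% of tested genes. Among the genes that changed it lay in NDUFS6, which rose, and in NDUFAF3, which fell. A further match in NDUFAF3, TGACGCTGC, begins 7 bases after another of its listed starts and is outside the stretch shown. The ETS motif, CCGGAAG, was in 7 of 39 (17.9%), beside 12.2% of all genes with an entry and 23.3% of tested genes. It was in none of the 6 changed genes with an entry. Each match is a stretch of letters and was not tested for binding.

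Among the 10 S and V genes there were 3 that rose (30.0%, beside 11.7% of all tested genes) and 7 that did not pass the test. These symbols cover conserved catalytic subunits of the peripheral arm, of which NDUFV2 rose, together with 4 supernumerary subunits (NDUFS4, NDUFS5, NDUFS6 and NDUFV3), 2 of which rose.

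NDUFV2 (ENSG00000178127) carries an iron-sulfur cluster beside the flavin subunit NDUFV1, at the tip where NADH is oxidised. It ranged from 213 to 242 TPM in normoxia (median 229) and from 255 to 283 TPM in hyperoxia (median 261). The groups did not overlap. The means were 228.6 ± 9.69 and 264.5 ± 10.6 TPM (SD, n = 6 each), a log2 difference of 0.21 (SE 0.04; limma, Benjamini-Hochberg adjusted p = 0.00157). Its direct partner NDUFV1 did not pass the test and had medians of 132 and 135 TPM.

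NDUFS7, which holds the last iron-sulfur cluster before ubiquinone, had medians of 159 and 152 TPM and did not pass the test. NDUFS1, the largest subunit of the peripheral arm and the carrier of several clusters, ranged from 47.5 to 53.9 TPM in normoxia and from 49.7 to 53.1 TPM in hyperoxia, and did not pass either. NDUFS8, which carries clusters between them, had medians of 193 and 186 TPM, and its groups overlapped.

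The supernumerary subunits that rose did so with overlapping groups. NDUFS6 (ENSG00000145494), a zinc-binding subunit added late in assembly, ranged from 334 to 390 TPM in normoxia (median 353) and from 373 to 417 TPM in hyperoxia (median 402). Only normoxia replicate 5 reached into the hyperoxia range. The log2 difference was 0.17 (SE 0.04; limma, Benjamini-Hochberg adjusted p = 0.0109), and the call was lost under median-of-ratios scaling (adjusted p = 0.079), as it was without normoxia replicates 1, 2 and 3 (adjusted p = 0.119).

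NDUFS5 (ENSG00000168653), on the intermembrane-space side of the membrane arm, had the highest level of the S and V genes. It ranged from 526 to 587 TPM in normoxia (median 544) and from 543 to 656 TPM in hyperoxia (median 608), with broad overlap. Its log2 difference of 0.14 (SE 0.04; limma, Benjamini-Hochberg adjusted p = 0.0347) missed the threshold in 15 of 27 alternative settings, the most of the genes that rose. Among these were the fits without normoxia replicates 4, 5 and 6 (adjusted p = 0.164), without normoxia replicates 1, 2 and 3 (adjusted p = 0.124), and without any single one of normoxia replicates 1, 2, 4, 5 and 6 or hyperoxia replicates 2, 3, 4 and 5 (adjusted p = 0.0526 to 0.0747).

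The other S and V genes had differences between -0.09 and 0.12. NDUFS4, a supernumerary subunit known from mutations in Leigh syndrome, had the most negative difference, with 89.1 ± 5.48 TPM in normoxia and 83.3 ± 3.83 TPM in hyperoxia (n = 6 each; limma, Benjamini-Hochberg adjusted p = 0.17). NDUFV3, the S or V gene of lowest level, had 28.2 ± 3.45 and 30.5 ± 2.33 TPM (n = 6 each; limma, Benjamini-Hochberg adjusted p = 0.331).

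Among the 27 accessory subunits there were 4 that rose and 23 that did not pass the test. Their median difference was 0.06. By place in the enzyme, counted over subunits of all symbols, 5 of 20 in the membrane arm (25.0%) and 2 of 15 in the peripheral arm (13.3%) rose, beside 11.7% of all tested genes. The peripheral share is near that background, and the difference between the arms was not tested. Of these genes, only NDUFA8 in the membrane arm and NDUFV2 in the peripheral arm passed the threshold in all 27 alternative settings.

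NDUFA8 (ENSG00000119421) is held on the intermembrane-space side by disulfide bonds between paired cysteines. It ranged from 93.3 to 102 TPM in normoxia (median 97.8) and from 108 to 123 TPM in hyperoxia (median 115). The groups were separate, with the highest normoxia sample below the lowest hyperoxia sample. Its log2 difference of 0.24 (SE 0.04; limma, Benjamini-Hochberg adjusted p = 0.00127) was the largest among the genes that rose. Of the 4 subunits listed with such cysteine pairs, NDUFA8 and NDUFS5 rose and NDUFB7 and NDUFB10 did not pass the test. Over all tested genes 11.7% rose.

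NDUFC2 (ENSG00000151366), a small subunit of the membrane arm, ranged from 247 to 270 TPM in normoxia (median 259) and from 274 to 300.5 TPM in hyperoxia (median 279). The groups did not overlap, although the nearest samples differed by less than 4 TPM. The log2 difference was 0.14 (SE 0.03; limma, Benjamini-Hochberg adjusted p = 0.0168). Median-of-ratios scaling ended the call (adjusted p = 0.149), as did leaving out normoxia replicates 1, 2 and 3 (adjusted p = 0.12).

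NDUFB11 (ENSG00000147123) is a membrane-spanning subunit encoded on the X chromosome. Its normoxia samples lay close together, from 247 to 255 TPM (median 248), while hyperoxia ranged from 254 to 286 TPM (median 271). A single hyperoxia sample, replicate 6, fell inside the normoxia range. The log2 difference was 0.12 (SE 0.03; limma, Benjamini-Hochberg adjusted p = 0.0236), and it missed the threshold in 5 of 27 alternative settings. Among these were the fits without normoxia replicates 4, 5 and 6 (adjusted p = 0.162), without normoxia replicates 1, 2 and 3 (adjusted p = 0.0847) and without hyperoxia replicate 2 (adjusted p = 0.0506).

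NDUFA10 (ENSG00000130414) resembles nucleoside kinases and sits on the matrix face of the membrane arm. It ranged from 164 to 175 TPM in normoxia (median 167) and from 174 to 204 TPM in hyperoxia (median 182), overlapping at the edge. The log2 difference was 0.13 (SE 0.04; limma, Benjamini-Hochberg adjusted p = 0.0334), and it missed the threshold in 11 of 27 alternative settings. Among these were the fits without normoxia replicates 4, 5 and 6 (adjusted p = 0.183), without normoxia replicates 1, 2 and 3 (adjusted p = 0.11), and without any single one of normoxia replicates 1, 2, 4 and 6 or hyperoxia replicates 1 and 2 (adjusted p = 0.0565 to 0.0642).

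**Figure D3:**
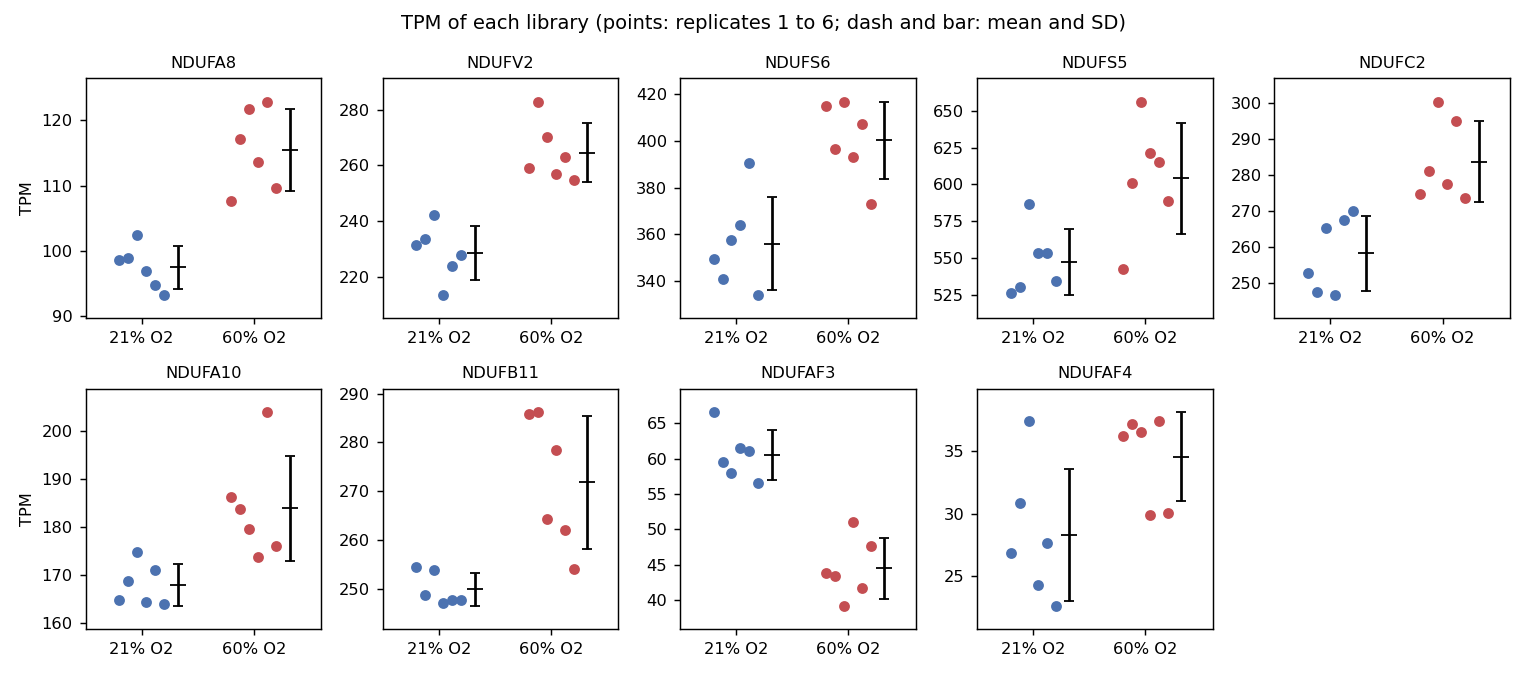
Level in each of the 12 samples (vertical axes, TPM, which do not start at 0) at 21% oxygen (blue) and 60% oxygen (red) for the 8 genes past the threshold and for NDUFAF4; points are replicates, and the dash and bar beside them are mean and SD. NDUFA8, NDUFV2, NDUFC2 and NDUFAF3 show no overlap between the groups, and the other 5 genes overlap.

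The 23 accessory subunits that did not pass the test had differences from -0.20 (NDUFA3) to 0.18 (NDUFB5). NDUFB9, the most abundant, went from 559.1 ± 23.1 to 609 ± 41.4 TPM (n = 6 each; limma, Benjamini-Hochberg adjusted p = 0.0754). NDUFB6, the least abundant, had medians of 35.6 and 35.9 TPM. NDUFA3 had the most negative difference, with 71.3 ± 10.2 TPM in normoxia and 61.6 ± 6.2 TPM in hyperoxia (n = 6 each; log2 difference -0.20, limma, Benjamini-Hochberg adjusted p = 0.17). NDUFA7, on the matrix side, had the widest spread relative to its mean in hyperoxia, from 73.4 to 136 TPM, around its normoxia range of 92.8 to 120.3 TPM. NDUFA4, today counted among the subunits of complex IV, had medians of 97.2 and 97.9 TPM.

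Of the 8 assembly factors, NDUFAF3 fell, beside 5.63% of all tested genes that fell, and 7 did not pass the test. NDUFAF3 (ENSG00000178057) acts early, with NDUFAF4, on the module that will bind ubiquinone. It ranged from 56.5 to 66.5 TPM in normoxia (median 60.3) and from 39.2 to 51.1 TPM in hyperoxia (median 43.6). The groups did not overlap, and none of the other 44 genes had as large a difference in either direction. The means were 60.5 ± 3.49 and 44.5 ± 4.27 TPM (SD, n = 6 each), a log2 difference of -0.44 (SE 0.06; limma, Benjamini-Hochberg adjusted p = 0.000402).

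NDUFAF4, its partner, had the most positive difference of the 45 genes and did not pass the test. It ranged from 22.6 to 37.4 TPM in normoxia (median 27.3) and from 29.9 to 37.4 TPM in hyperoxia (median 36.4), with the highest samples of both groups at the same level. The log2 difference was 0.29 (SE 0.11; limma, Benjamini-Hochberg adjusted p = 0.0779), and it passed the threshold in 4 of 27 alternative settings. The SE of NDUFAF4 was larger than that of every gene that rose, which lay between 0.03 and 0.04.

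NDUFAF1, which works with ACAD9 on the membrane arm, had the lowest level of all, with medians of 15.9 and 18.0 TPM (limma, Benjamini-Hochberg adjusted p = 0.15). NDUFAF8, the stabilising partner of NDUFAF5, had the highest level of the assembly factors, with 241.2 ± 14.2 and 253.4 ± 8.63 TPM (n = 6 each; limma, Benjamini-Hochberg adjusted p = 0.241). NDUFAF6 had medians of 16.7 and 18.7 TPM (limma, Benjamini-Hochberg adjusted p = 0.0586). The remaining 3 did not pass the test either: NDUFAF2, a relative of the subunit NDUFA12, had medians of 75.5 and 79.3 TPM. NDUFAF5, which modifies NDUFS7, had 17.4 and 18.7 TPM, and NDUFAF7, a methyltransferase, had 15.7 and 17.7 TPM. All 7 assembly factors other than NDUFAF3 thus had positive differences, as did 8296 of all 14520 tested genes, and their groups overlapped.

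The 11 further assembly factors that carry other symbols had a median difference of 0.00, and 1 rose and 1 fell. Over all tested genes 11.7% rose and 5.63% fell. TMEM70, a membrane factor known for ATP synthase as well as complex I, rose from 48.4 ± 3.20 to 57.0 ± 2.65 TPM (n = 6 each; log2 difference 0.23, limma, Benjamini-Hochberg adjusted p = 0.00508). ACAD9, a flavoenzyme of the same assembly complex as NDUFAF1, fell from 34.6 ± 2.08 to 30.3 ± 1.23 TPM (n = 6 each; log2 difference -0.18, limma, Benjamini-Hochberg adjusted p = 0.0148). Neither gene overlapped between the groups, and the call of ACAD9 was lost without normoxia replicates 4, 5 and 6 (adjusted p = 0.139).

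The 7 complex I subunits encoded by mitochondrial DNA, which form the heart of the membrane arm, moved in both directions: 1 rose, 3 fell and 3 did not pass the test. Their median difference was -0.01. Among all tested genes, 11.7% rose and 5.63% fell. MT-ND1 ranged from 1818 to 2118 TPM in normoxia and from 2387 to 2630.3 TPM in hyperoxia, a log2 difference of 0.34 (SE 0.04; limma, Benjamini-Hochberg adjusted p = 4.37e-05). MT-ND3 ranged from 3266 to 3735 TPM in normoxia and from 2487 to 2996 TPM in hyperoxia, a log2 difference of -0.33 (SE 0.05; limma, Benjamini-Hochberg adjusted p = 0.000612). None of the 4 changed genes overlapped between the groups. Of all tested genes, 6.20% lay higher without overlap and 2.58% lower.

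MT-ND6, the subunit encoded on the opposite strand of mitochondrial DNA, had medians of 1517 and 1291 TPM (log2 difference -0.24, SE 0.04; limma, Benjamini-Hochberg adjusted p = 0.00132). MT-ND5 had medians of 3717 and 3348 TPM (log2 difference -0.18, SE 0.04; limma, Benjamini-Hochberg adjusted p = 0.00533), and its call was lost with quantile normalisation (adjusted p = 0.101) and without normoxia replicates 1, 2 and 3 (adjusted p = 0.0617). MT-ND4L, MT-ND4 and MT-ND2 did not pass the test, with differences of 0.18, 0.12 and -0.01. The sum over the 7 overlapped, at 27155 to 32492 TPM in normoxia and 28451 to 31323 TPM in hyperoxia. These sums are more than 3 times that of the 45 nuclear genes.

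**Figure D4:**
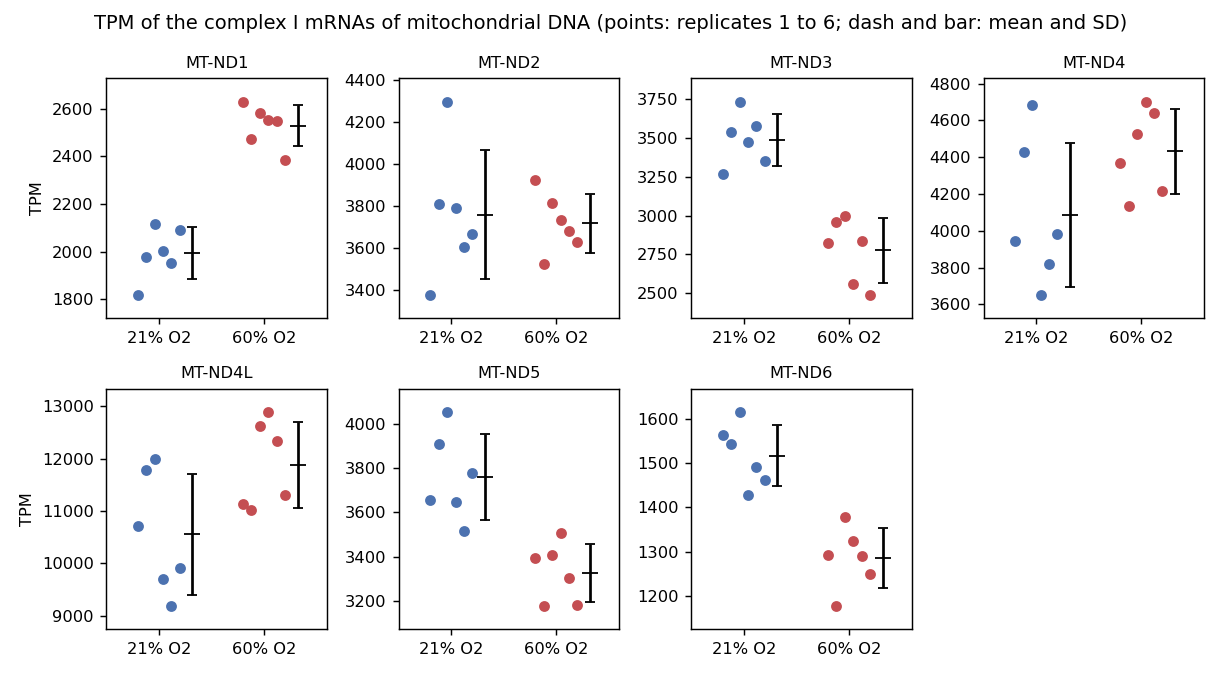
Level in each of the 12 samples (vertical axes, TPM, which do not start at 0) of the 7 complex I genes of mitochondrial DNA at 21% oxygen (blue) and 60% oxygen (red); points are replicates, and the dash and bar beside them are mean and SD. MT-ND1 is higher in every hyperoxia sample than in any normoxia sample, and MT-ND3, MT-ND5 and MT-ND6 are lower.

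Of 38 nuclear genes of complexes II to V, 5 rose (13.2%) and 1 fell, with a median difference of 0.07. Beside these stand 15.6% and 0.07 for complex I, and 11.7% and 0.03 for all tested genes. The differences between these shares were not tested. Of the 5, COX7B, COX6C and ATP5MG missed the threshold in 15, 17 and 17 of 27 alternative settings. The genes with the smallest p in each complex were SDHA of complex II (0.19; limma, Benjamini-Hochberg adjusted p = 0.0116), UQCRC2 of complex III (0.18; adjusted p = 0.0683), COX5A of complex IV (0.20; adjusted p = 0.0118) and ATP5F1D of complex V (-0.21; adjusted p = 0.0118). The calls of SDHA and ATP5F1D were lost without normoxia replicates 1, 2 and 3 (adjusted p = 0.0747 and 0.089), and that of ATP5F1D also without normoxia replicates 4, 5 and 6 (adjusted p = 0.0654).

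Of 8 regulators of mitochondrial genes, 1 rose and 1 fell, beside 11.7% and 5.63% of all tested genes. NRF1, the factor whose motif was searched above, ranged from 13.5 to 19.4 TPM in normoxia (median 14.6) and from 10.8 to 13.2 TPM in hyperoxia (median 12.3), a log2 difference of -0.29 (SE 0.08; limma, Benjamini-Hochberg adjusted p = 0.0208). Its groups did not overlap. A link between NRF1 and the complex I genes was not tested. The call of NRF1 was lost when low genes were not filtered (adjusted p = 0.0512) and without normoxia replicates 4, 5 and 6 (log2 difference -0.20, adjusted p = 0.0987). TFAM, which packages and transcribes mitochondrial DNA, had medians of 54.2 and 63.9 TPM (log2 difference 0.17; limma, Benjamini-Hochberg adjusted p = 0.0471) and missed the threshold in 18 of 27 alternative settings, among them without normoxia replicates 4, 5 and 6 (adjusted p = 0.206) and without normoxia replicates 1, 2 and 3 (adjusted p = 0.169).

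The authors' deposited table, made with their own normalisation and test, gave 6 of the 45 genes as higher and 1 as lower at an adjusted p under 0.05, beside 15.7% and 14.3% of tested genes. NDUFAF3 (log2 fold change -0.45), NDUFA8 (0.22), NDUFV2 (0.19) and NDUFA10 (0.10) were called in the authors' deposited table too. NDUFB5, NDUFV3 and NDUFAF6 were called there and not in the fit on TPM, and NDUFS5, NDUFS6, NDUFC2 and NDUFB11 in the fit and not there. The difference from the fit exceeded the log2 fold change of the authors' deposited table in 40 of 45 genes, by a median of 0.03.

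The largest gap was NDUFA3, at -0.20 in the fit and 0.01 in the authors' deposited table. NDUFA3, NDUFA9, NDUFB10 and NDUFB2 had opposite signs in the fit and in the authors' deposited table. None of the 4 was called in either.

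**Figure D5:**
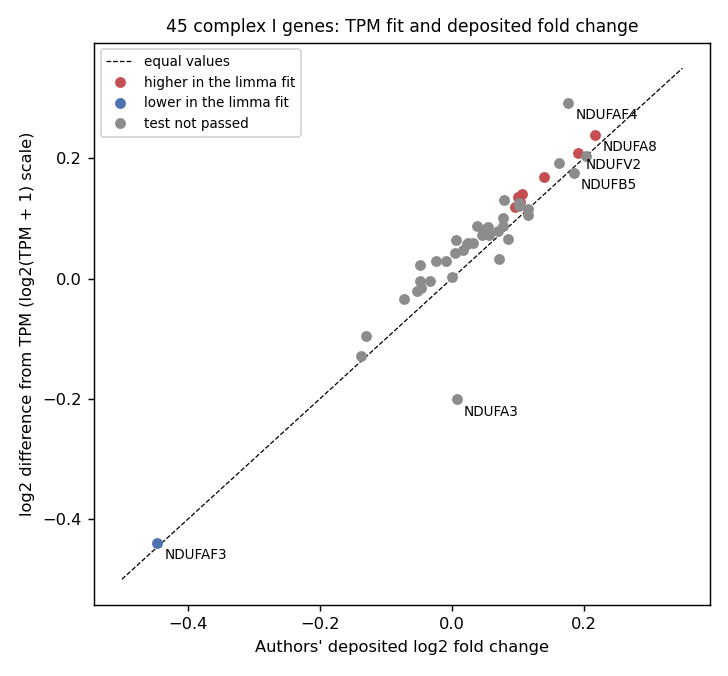
Difference from the fit on log2(TPM + 1) (vertical axis) against the log2 fold change of the authors' deposited table (horizontal axis) for the 45 genes, both as hyperoxia against normoxia; the dashed line marks equal values, and red and blue mark genes that passed the limma test as higher and lower. Points lie above the line for 40 genes, and NDUFA3 lies furthest below it.

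Some of the genes share exonic sequence with neighbours. In GENCODE 29, 25 of the 45 genes have an exon that overlaps an exon of another gene, among them 4 of the 8 that changed: NDUFAF3 with DALRD3, NDUFB11 with RBM10 and NDUFC2 with THRSP on the opposite strand, and NDUFC2 and NDUFV2 with a transcript on the same strand. Whether reads were counted by strand, and whether on this annotation, is not settled. DALRD3, with a start 145 bases from the nearest listed start of NDUFAF3, had a difference of -0.20 and did not pass the test (limma, Benjamini-Hochberg adjusted p = 0.159). RBM10, beside NDUFB11, had a difference of 0.03. These values were not tested for a part in the calls.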

How the data were processed

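The deposited table holds TPM per gene for each of the 12 samples and, per the file headers, the authors' own comparison as a linear fold change with its log2 value, p-value and adjusted p-value. The submitters' processing notes name HTSeq 0.9.1, which the design text gives for counting, and edgeR 3.16.5, given for normalisation. The same notes name a mouse build although all gene identifiers are human, so the annotation used for counting is unknown. The coordinates printed come from RefSeq (GRCh38.p14), and the exon overlaps from GENCODE 29. For the aligner and the TPM computation no source used here gives a name. Labels and the design text name different library kits, and TPM keeps no depth. In 78 of 59577 genes the deposited values disagree with each other (tolerances 1e-05 on the log2 scale and 1e-04 TPM), none of them in the complex I genes or the other lists.

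Genes with a mean of at least 1 TPM over the 12 samples were tested with limma 3.58.1 in R 4.3.3 (eBayes with the mean-variance trend, two-sided) on log2(TPM + 1), adjusted by Benjamini-Hochberg over 14520 genes, at a threshold of 0.05. Differences are on that scale, which understates changes of low genes. Named genes are those past the threshold, the highest, lowest, most positive and most negative of each class, up to 3 genes with the smallest p of each other list, and the 7 MT-ND genes; any others were named after their values were seen. Of the genes the rule found, 1 is not reported here and was left out of every count of complex I genes. The members and lists were chosen with earlier results of these data known. Alternatives were other pseudocounts, filters, scalings, variance models and tests, a replicate block, and samples left out.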

Additional observations from a re-analysis of the deposited data

Results flagged for a closer look

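In 2 of 104 groups of 6 samples tested, a sample stood apart from the other 5 by Dixon's criterion, which chance alone meets in about 1 group in 20. NDUFAB1, the mitochondrial acyl carrier protein, was at 244.47 TPM in hyperoxia replicate 2, while the other hyperoxia samples lay between 201 and 213 TPM. NDUFS3, a conserved subunit of the peripheral arm, was at 151.63 TPM in hyperoxia replicate 1, while the other hyperoxia samples lay between 171 and 177 TPM. Neither gene passed the test between the groups.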

How the results depend on the processing

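Of the 27 alternative settings, none reversed a called gene, and 28 of the 45 genes passed the threshold in none. The number of complex I genes that rose was 7, and became 2 with median-of-ratios scaling, 4 with eBayes without the trend, 4 without normoxia replicates 4, 5 and 6, and 4 without normoxia replicates 1, 2 and 3. The median difference of the 45 genes was 0.11 in the last setting. The cause was not tested beyond the fewer samples. Leaving out single samples gave 4 (without hyperoxia replicate 2) to 11 (without normoxia replicate 3) genes that rose and 1 to 2 that fell (2 without normoxia replicate 4, the second being NDUFA3), with a median of 0.07 to 0.09. Over all tested genes, leaving out single samples gave 1330 to 1558 that rose and 602 to 934 that fell. The number that fell, 818, became 1235 with median-of-ratios scaling, 515 with the exact rank-sum test, 375 without normoxia replicates 4, 5 and 6 and 443 without normoxia replicates 1, 2 and 3; in the last pair of settings 1000 and 788 rose, in place of 1698. Quantile normalisation gave 1437 that rose and 1208 that fell. With median-of-ratios scaling 1323 rose, and with eBayes without the trend 1597.

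The replicate numbers shared by the groups did not pair the samples: correlations of same-numbered samples were -0.12 to 0.02. No normoxia sample correlated best with the hyperoxia sample of its own number. With the replicate number as a block, 12 complex I genes rose in place of 7, and 1656 of all tested genes in place of 1698. TPM holds no counts, so how depth limits these small differences is unknown.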

Other observations

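Ratios between partner genes, chosen after their values were seen and given with no test, varied between samples. The log2 ratio of NDUFAF4 to NDUFAF3 ranged from -1.34 to -0.63 in normoxia and from -0.77 to -0.10 in hyperoxia, with an overlap. That of NDUFV2 to NDUFV1 ranged from 0.66 to 1.15 and from 0.84 to 1.08.

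For 21 of the 45 genes, a gene on the opposite strand starts within 1000 bases. Of the 15 such partners that could be tested, CEBPZ, a nucleolar protein gene beside NDUFAF7, rose (log2 difference 0.36; limma, Benjamini-Hochberg adjusted p = 0.000782), and the other 14 did not pass the test. NDUFAF7 did not pass it either. Of 61 pseudogene entries named after complex I genes, 49 were at 0 TPM in all samples and only NDUFV2P1 reached a mean of 1 TPM, at 1.80 TPM in normoxia and 2.24 TPM in hyperoxia.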
